A study of Homo sapiens with 54 samples.

Results

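The genes described here are CD14 and 8 other receptors of the monocyte surface: TREM1, TLR2, TLR4, LY96, ITGAM, ITGAX, CD163 and CSF1R. They were chosen by name, with earlier results of these data known, and each was read from a probe set whose only gene symbol is that of the gene. All 9 were found, each on 1 probe set, among 18417 genes with such a probe set. RNA of 9 human cell lines, kept for 8 h or 36 h with calcitriol (the hormonal form of vitamin D) or untreated at 0 h, was hybridised to Affymetrix Gene 1.0 ST arrays, which give a log2 level per probe set. The lines were HL60 (promyelocytic leukaemia), K562 (chronic myeloid leukaemia with erythroid features), HEP-G2 (hepatoma), the fibroblast lines Ag09309 and Ag09319, and the B cell lines GM07019, GM07348, GM10854 and GM12878, which are lymphoblastoid lines immortalised with Epstein-Barr virus. With 2 arrays per line and time there were 54 arrays and 27 groups. No source used here gives the calcitriol dose, and cultures kept for 8 h or 36 h without calcitriol were not analysed here, so calcitriol and time in culture cannot be told apart. The labels do not say whether the 2 arrays of a group came from separate cultures, so p-values measure the spread between arrays. HL60 is a single line, and no primary monocyte was among the samples.

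Monocytes sense bacterial cell wall with a set of surface proteins. CD14 binds lipopolysaccharide and passes it to TLR4, which signals with LY96 (MD-2) bound to its outer part, while TLR2 recognises bacterial lipoproteins. TREM1 is an activating receptor that amplifies this signalling through the adaptor TYROBP (DAP12). ITGAM (CD11b) and ITGAX (CD11c) are integrin alpha chains that reach the surface paired with the beta chain ITGB2, CD163 is the scavenger receptor for haptoglobin and haemoglobin, and CSF1R is the receptor for macrophage colony-stimulating factor. HL60 cells are promyelocyte-like cells that can be driven towards monocytes by calcitriol, and CD14 is widely used as a marker of that change.

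CD14, TREM1 and ITGAM were the receptors that rose in HL60, and the 250 bases before the start of each gene are shown because these 3 moved together. The sequences are from RefSeq on GRCh38.p14, written 5′ to 3′ on the gene's strand: chr5:140633176-140633425 (minus strand) for CD14, chr6:41286683-41286932 (minus strand) for TREM1 and chr16:31259725-31259974 (plus strand) for ITGAM. Capitals mark matches to the core GAGGAA of PU.1, the factor that sets up myeloid gene expression, to the core TTNNGNAA of the C/EBP factors, or to a vitamin D receptor element written as 2 copies of NGNTCA set 3 bases apart.
CD14: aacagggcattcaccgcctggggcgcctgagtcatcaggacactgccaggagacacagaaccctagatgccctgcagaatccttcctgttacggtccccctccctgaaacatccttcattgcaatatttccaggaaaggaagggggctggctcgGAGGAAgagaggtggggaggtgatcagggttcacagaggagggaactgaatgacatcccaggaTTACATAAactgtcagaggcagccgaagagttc
TREM1: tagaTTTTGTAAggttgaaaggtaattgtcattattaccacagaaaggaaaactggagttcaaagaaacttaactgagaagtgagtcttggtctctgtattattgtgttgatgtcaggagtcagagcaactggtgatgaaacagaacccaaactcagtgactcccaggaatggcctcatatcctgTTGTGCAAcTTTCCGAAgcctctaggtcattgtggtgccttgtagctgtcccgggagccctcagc
ITGAM: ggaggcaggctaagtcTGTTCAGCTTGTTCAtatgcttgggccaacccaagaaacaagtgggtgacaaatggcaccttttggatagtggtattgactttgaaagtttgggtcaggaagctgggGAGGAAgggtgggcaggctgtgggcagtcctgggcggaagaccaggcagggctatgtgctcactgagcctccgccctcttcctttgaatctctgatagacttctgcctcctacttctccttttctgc

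Both strands were searched, and positions count back from the start site. The ITGAM window held 1 vitamin D receptor match at −234 to −220 and 1 PU.1 core at −127 to −122. The CD14 window held 1 PU.1 core at −96 to −91 and 1 C/EBP core at −33 to −26, and the TREM1 window held 3 C/EBP cores, at −246 to −239, −65 to −58 and −56 to −49. Neither the CD14 nor the TREM1 window matched the vitamin D receptor letters. Of 35116 promoter windows of the same table, 0.49% held that element, 23.6% the PU.1 core and 33.2% the C/EBP core. These are letter matches in 250 bases and not measured binding. The other receptors whose windows were examined (TLR2, TLR4, CD163 and CSF1R) had no vitamin D receptor match either. PU.1 and C/EBP cores were not particular to the genes that rose. TLR4 held 4 PU.1 cores, and 1 of the 2 CSF1R windows held 2 PU.1 cores and 1 C/EBP core. CD163 held 1 PU.1 core and C/EBP cores at −211 to −204, −171 to −164 (a match on both strands) and −150 to −143. TLR2 held neither, and no window of ITGAX or LY96 was examined.

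The lines carried the markers of their labels at 0 h: all 8 measured B cell markers were highest in a lymphoblastoid line, all 10 fibroblast markers in a fibroblast line, all 9 hepatocyte markers in HEP-G2, 8 of 9 erythroid markers in K562 and 14 of 17 promyelocyte and neutrophil markers in HL60. One exception touches the results below. The Ag09309 arrays at 0 h also carried B cell signal: MS4A1 (CD20), a B cell surface marker, read 8.15 and 8.07 at 0 h, 3.38 and 3.29 at 8 h and 3.10 and 2.85 at 36 h. All 8 B cell markers were called lower in Ag09309 at 36 h, with a median log2 change of −1.23, so the fibroblast levels, the differences of HL60 from the other lines, the means over 9 lines and the correlations are also given without it. The Ag09309 changes at 8 h have no value without those arrays. In Ag09319 at 8 h, HEP-G2 at 0 h and K562 at 36 h, 1 array stood apart from its line. CYP24A1, the calcitriol-degrading enzyme and the standard vitamin D target, rose in HL60 by 4.10 ± 0.33 at 8 h and 6.44 ± 0.33 at 36 h on the log2 scale (estimate ± SE, 2 arrays against 2, limma adjusted p = 1.60e-10 and 1.36e-16), while VDR, the vitamin D receptor, changed by −0.23 at 36 h (adjusted p = 0.977).

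CD14 rose steeply in HL60. Its log2 level was 5.98 and 5.99 on the 0 h arrays, 8.72 and 8.41 at 8 h and 10.20 and 9.97 at 36 h. Each time lay above the one before with no overlap, and the mean level moved through the 61.65th, 96.45th and 99.32nd percentile of the probe sets tested. The change at 36 h against 0 h was 4.10 ± 0.24 (estimate ± SE, 2 arrays against 2), a 17.1-fold rise (limma, adjusted p = 2.82e-15). At 8 h against 0 h it was already 2.58 ± 0.24, or 6.0-fold (limma, adjusted p = 3.01e-09). Between 8 h and 36 h CD14 gained a further 1.51 ± 0.24 (limma, adjusted p = 0.000617).

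TREM1 followed the same course from a lower start. It read 4.06 and 4.08 at 0 h, 6.37 and 6.02 at 8 h and 7.30 and 7.75 at 36 h in HL60. At 0 h neither HL60 array exceeded the 95th percentile of the 381 olfactory receptor probe sets on its array (4.52 to 5.74 over the 54 arrays), a family with little expression outside the nose that serves here to mark low signal. At 8 h and 36 h all 4 arrays exceeded it, and no other line did so on both arrays at any time. The measured rise was 2.13 ± 0.19 at 8 h (limma, adjusted p = 2.01e-09) and 3.46 ± 0.19 at 36 h (limma, adjusted p = 7.63e-16). Since the 0 h signal was low, the fold is a bound: set against the olfactory receptor 95th percentile of the 0 h arrays, TREM1 was at least 2.33-fold higher at 8 h and at least 5.86-fold higher at 36 h. The step between 8 h and 36 h was 1.33 ± 0.19 (limma, adjusted p = 0.000138).

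ITGAM was above the olfactory receptor 95th percentile in HL60 at all times and rose less. The arrays read 6.15 and 6.27 at 0 h, 7.26 and 7.29 at 8 h and 7.97 and 7.93 at 36 h, again without overlap between times. The change was 1.06 ± 0.21 at 8 h (2.09-fold, limma, adjusted p = 0.00662) and 1.74 ± 0.21 at 36 h (3.34-fold, limma, adjusted p = 4.93e-07). The 8 h call of ITGAM was lost without the first HL60 array at 0 h, or without either array at 8 h, which left 2 receptors called at that time, CD14 and TREM1. Between 8 h and 36 h the difference of 0.68 ± 0.21 did not pass (limma, adjusted p = 0.267).

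**Figure D1:**
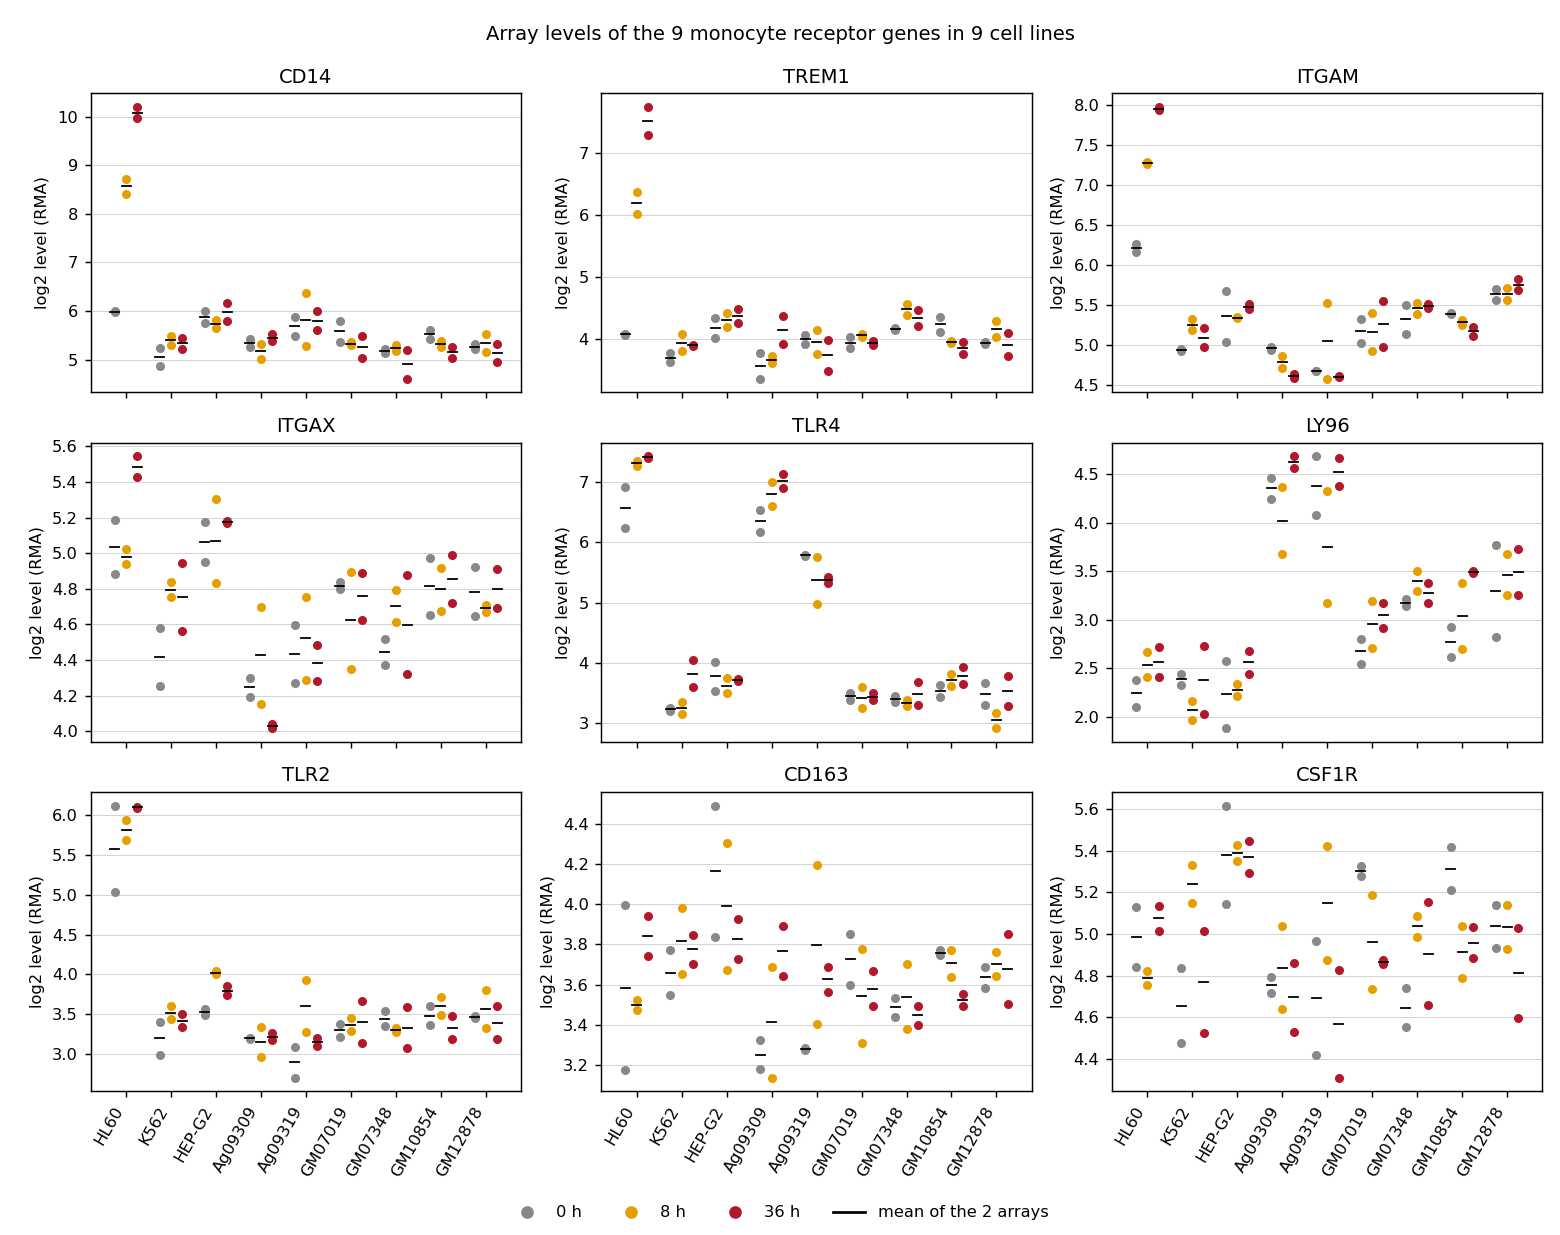
Log2 RMA level (y axis, a separate scale in each panel) of the 9 receptor genes on each of the 54 arrays, by cell line (x axis) and hours with calcitriol (colour); short lines are means of the 2 arrays. CD14, TREM1 and ITGAM climb over time in HL60. TREM1 also rises in Ag09309, by less and without a call (mean 3.56 at 0 h and 4.14 at 36 h). At every time TLR2 is higher in HL60 than in the other lines, and TLR4 is higher in HL60 and both fibroblast lines than in the rest.

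The other 6 receptors did not pass in HL60. TLR4 read 6.23 and 6.93 at 0 h, 7.36 and 7.28 at 8 h and 7.41 and 7.43 at 36 h. All 4 treated arrays lay above both 0 h arrays, but the change of 0.84 ± 0.23 at 36 h missed the threshold (limma, adjusted p = 0.0685). It passed without the 3 arrays that stood apart, none of them from HL60 (0.84, adjusted p = 0.0101), and without the second HL60 array at 0 h (1.19, adjusted p = 0.0184). TLR2 read 5.03 and 6.12 at 0 h, 5.95 and 5.70 at 8 h and 6.10 and 6.10 at 36 h. Its 0 h arrays spanned the treated ones, and the 36 h change of 0.52 ± 0.24 (limma, adjusted p = 0.623) was −0.020 without the first 0 h array and 1.07 (adjusted p = 0.0384) without the second.

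ITGAX read 5.19 and 4.89 at 0 h, 4.94 and 5.02 at 8 h and 5.54 and 5.43 at 36 h. The 2 arrays at 36 h were the highest, with a change of 0.45 ± 0.21 (limma, adjusted p = 0.629). LY96 read 2.10 and 2.38 at 0 h, 2.67 and 2.41 at 8 h and 2.72 and 2.41 at 36 h, so all treated arrays were slightly above the 0 h arrays (0.33 ± 0.31 at 36 h, limma, adjusted p = 0.988). CD163 read 4.0 and 3.17 at 0 h, 3.47 and 3.53 at 8 h and 3.74 and 3.94 at 36 h (0.26 ± 0.24 at 36 h). CSF1R read 5.13 and 4.84 at 0 h, 4.82 and 4.75 at 8 h and 5.02 and 5.14 at 36 h (0.09 ± 0.22 at 36 h). For CD163 and CSF1R the arrays at 36 h overlapped those at 0 h, while the CSF1R arrays at 8 h lay below all others. Neither CD163 nor LY96 exceeded the olfactory receptor 95th percentile on any HL60 array (0 of 6 for each).

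In numbers, 3 of 9 receptors were called higher and 0 lower in HL60 at 36 h against 0 h, where 0.868% of all 19460 probe sets tested were called, 0.714% higher and 0.154% lower. The median change of the 9 was 0.52, the value of TLR2, which was not called, against −0.02 over all probe sets. The receptors were chosen with earlier results of these data known, so these comparisons describe them and are no independent test. At 8 h the same 3 were called, against 0.236% of all probe sets (0.231% higher and 0.00514% lower). For 36 h against 8 h, CD14 and TREM1 were called, against 0.200% overall. That last count rests on single arrays: it was 0 without the second HL60 array at 8 h and 1, TREM1, without the first at 36 h. At 36 h against 0 h the count was 5 without the second HL60 array at 0 h, with TLR2 and TLR4 added.

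**Figure D2:**
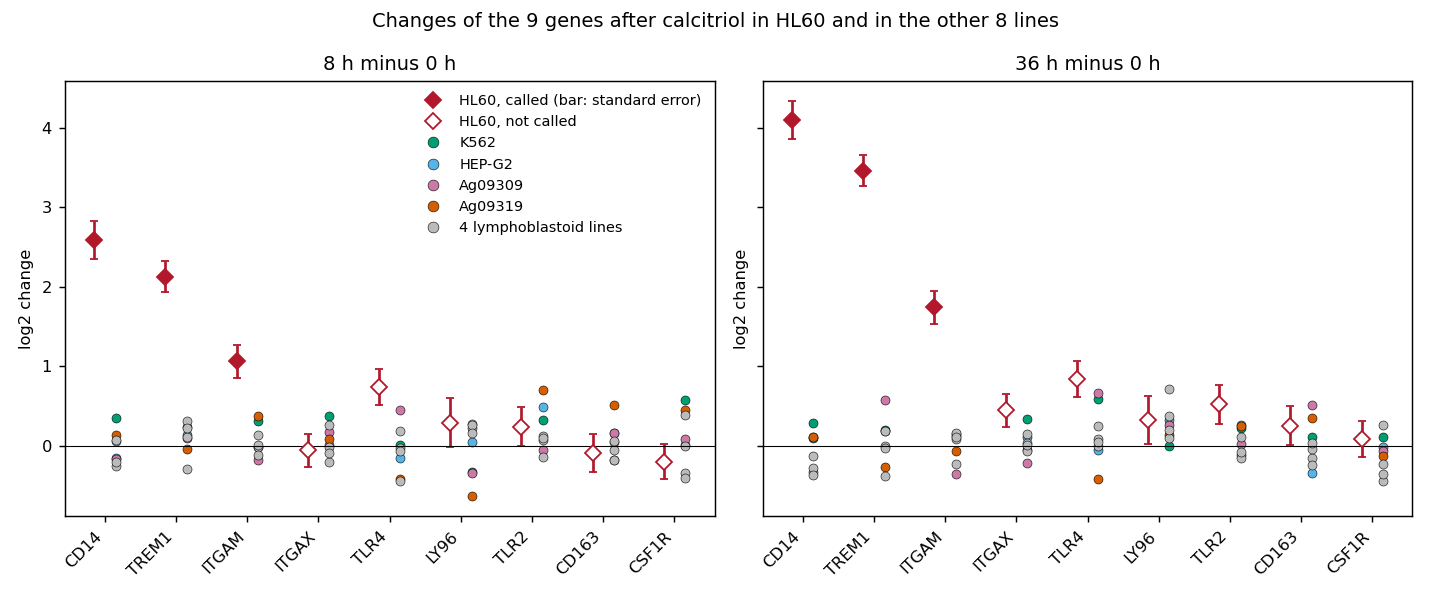
Log2 change of each receptor gene (y axis) at 8 h (left) and 36 h (right) against 0 h; diamonds are HL60 with the standard error of limma's fit, filled where called, and circles are the other 8 lines. The HL60 values of CD14, TREM1 and ITGAM at 36 h (4.10, 3.46 and 1.74) lie far above all circles, which run from −0.44 to 0.72.

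The rise of CD14, TREM1 and ITGAM in HL60 differed from what the same genes did elsewhere, tested as a difference of changes. Against the mean change of the 4 lymphoblastoid lines at 36 h, the HL60 change was larger by 4.37 ± 0.27 for CD14 (limma, adjusted p = 1.62e-14), by 3.52 ± 0.22 for TREM1 (limma, adjusted p = 1.62e-14) and by 1.70 ± 0.23 for ITGAM (limma, adjusted p = 1.24e-05). These were the 3 of 9 receptors called, against 0.457% of all probe sets. Against K562, the other leukaemia line, the same 3 were called, with differences of 3.81 ± 0.34 for CD14, 3.26 ± 0.27 for TREM1 and 1.59 ± 0.29 for ITGAM (limma, adjusted p = 1.16e-09, 2.74e-10 and 0.00502), against 0.185% overall. In K562 itself CD14 read 5.22 and 5.44 at 36 h, against 4.86 and 5.23 at 0 h. Against the mean change of the other 8 lines, a comparison added after the data were seen, the differences were 4.16 ± 0.25, 3.40 ± 0.20 and 1.74 ± 0.22 (limma, adjusted p = 1.45e-14, 1.19e-14 and 2.30e-06), with 0.576% of probe sets called. Without Ag09309 at 0 h they were 4.18, 3.47 and 1.69, all 3 still called, against 0.468% of probe sets.

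In the other 8 lines no receptor was called at either time. At 36 h, 0 of 72 tests of a receptor in a line passed, 5 had an unadjusted p under 0.05, and the changes ran from −0.44 to 0.72. At 8 h, 0 of 72 passed, 6 had an unadjusted p under 0.05, and the changes ran from −0.63 to 0.71. The share of all probe sets called at 36 h was 4.91% in Ag09309, 4.49% in Ag09319, 1.84% in HEP-G2 and 0.0411% in K562. Among the lymphoblastoid lines it was 0.118% in GM07348, 0.0668% in GM10854, and 0.0514% in both GM07019 and GM12878. At 8 h it was 1.53% in Ag09309, 0.324% in Ag09319, 0.00514% in GM07348 and 0% in the other 5 lines. With 9 receptors a line, these shares predict fewer than 1 call in any line.

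The 5 tests with an unadjusted p under 0.05 at 36 h were TREM1, TLR4 and CD163 in Ag09309, TLR4 in K562 (0.59 ± 0.23, limma, adjusted p = 0.435) and LY96 in GM10854 (0.72 ± 0.31, limma, adjusted p = 0.603). The values nearest to the threshold came from Ag09309. TREM1 read 4.37 and 3.92 at 36 h, against 3.77 and 3.35 at 0 h (0.58 ± 0.19, limma, adjusted p = 0.0756), and all 4 arrays stayed low beside HL60 at 36 h. TLR4 read 6.91 and 7.14 at 36 h, against 6.54 and 6.18 at 0 h, with no overlap (0.67 ± 0.23, limma, adjusted p = 0.0854). Both pass without the 3 arrays that stood apart, and TREM1 also under quantile normalisation or median centring. The 0 h arrays of this comparison are those with B cell signal, whose part was not tested; between 36 h and 8 h in the same line TREM1 changed by 0.48 (adjusted p = 0.383) and TLR4 by 0.21 (adjusted p = 0.825). In Ag09319 TLR4 read 5.42 and 5.33 at 36 h, against 5.79 and 5.78 at 0 h (−0.41 ± 0.23, limma, adjusted p = 0.488).

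Of the 6 tests with an unadjusted p under 0.05 at 8 h, 4 were in Ag09319: TLR2 (0.71), LY96 (−0.63), CD163 (0.52) and CSF1R (0.46). The second Ag09319 array at 8 h is one of those that stood apart. CD14 read 6.36 on it and 5.28 on the first array, LY96 3.18 and 4.32, and ITGAM 5.52 and 4.57. Without that array the changes were 0.38 for TLR2, −0.06 for LY96, 0.12 for CD163 and 0.18 for CSF1R. The other 2 were TLR2 in HEP-G2 (0.49) and CSF1R in K562 (0.58).

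Means over lines gave no call either. Over the 9 lines at 36 h, with the line as the replicate, 0 of 9 receptors passed, with or without Ag09309. Over the 9 lines 0.468% of all probe sets passed. An unadjusted p under 0.05 was found for 2 receptors, and neither CD14 (0.40 ± 0.28) nor TREM1 (0.44 ± 0.23) was among them. Over the 4 lymphoblastoid lines 0 of 9 passed at 36 h (2 with an unadjusted p under 0.05, and 1.14% of all probe sets called) and 0 of 9 at 8 h (1 with an unadjusted p under 0.05, and 0.0257% called). At 36 h in these lines CD14 changed by −0.27 ± 0.08 (limma, n = 4 lines, adjusted p = 0.133) and LY96 by 0.35 ± 0.10 (limma, n = 4 lines, adjusted p = 0.0959). CD14 was lower in all 4 lines and LY96 higher in all 4. LY96 exceeded the olfactory receptor 95th percentile on no lymphoblastoid array at any time, so its change is one between low signals. Without GM07348 LY96 was called.

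Before calcitriol the lines already differed in the Toll-like receptor genes. Sample titles are written in one style for HL60, K562, Ag09309, GM07019, GM07348 and GM10854 and in another, which carries a date, for Ag09319, HEP-G2 and GM12878; levels set across the 2 styles also cross that split. TLR4 read 6.23 and 6.93 in HL60, 6.54 and 6.18 in Ag09309 and 5.79 and 5.78 in Ag09319, whereas the 12 arrays of the other 6 lines ran from 3.20 to 4.02 with a median of 3.44. HL60 and Ag09309 overlapped, both exceeded Ag09319, and all 3 lines lay above the rest. TLR2 was set apart in HL60 only: 5.03 and 6.12, against 2.70 to 3.60 over the 16 arrays of the other 8 lines. Of these 2 HL60 arrays, 1 exceeded the olfactory receptor 95th percentile. LY96, the TLR4 co-receptor, did not follow TLR4 in HL60. It read 2.10 and 2.38 there, near the 2nd percentile of the probe sets (1.97), and 4.47 and 4.25 in Ag09309 and 4.68 and 4.08 in Ag09319, against 1.88 to 3.77 over the 12 arrays of the 6 lines other than HL60 and the fibroblasts. Both fibroblast lines lay above all others for LY96, while HL60, K562 and HEP-G2 overlapped at the bottom.

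Tested at 0 h, HL60 minus the mean of the lymphoblastoid lines was 3.12 ± 0.18 for TLR4, 2.16 ± 0.19 for TLR2, 0.83 ± 0.16 for ITGAM, 0.60 ± 0.19 for CD14 and −0.74 ± 0.24 for LY96 on the log2 scale. All 5 were called (limma, adjusted p between 5.82e-17 and 0.0202), against 25.3% of all probe sets. LY96 was below the olfactory receptor 95th percentile on every HL60 and lymphoblastoid array at 0 h, so its difference is one between low signals. Without either HL60 array at 0 h only TLR4, TLR2 and ITGAM remained called. Against the 3 lymphoblastoid lines of its own title style, HL60 differed by 3.13 for TLR4, 2.17 for TLR2, 0.92 for ITGAM and 0.56 for CD14, all 4 called against 25.4% of probe sets, and by −0.63 for LY96 (adjusted p = 0.0613). For the mean of the 2 fibroblast lines minus the lymphoblastoid lines, the differences were 2.61 ± 0.14 for TLR4 and 1.39 ± 0.19 for LY96 (limma, adjusted p = 1.33e-18 and 6.84e-08). TREM1, TLR2, ITGAM, ITGAX, CD163 and CSF1R were lower by less, from −0.56 for ITGAM to −0.29 for TREM1. This made 8 of 9 called, against 50.5% of all probe sets, and 3 of them, TLR4, LY96 and ITGAM, held under quantile normalisation, under median centring and without the first Ag09319 array at 0 h; 4 were called without the second Ag09309 array, and 5 without its first, the second of GM07348 or the second of GM10854. With Ag09319 alone as the fibroblast line, 4 were called: TLR4 (2.33), LY96 (1.41), ITGAM (−0.71) and TLR2 (−0.52), against 38.7% of all probe sets, a share near that of the receptors. Within a title style, TLR4 and LY96 were called higher both in Ag09309 (2.90 and 1.48, against GM07019, GM07348 and GM10854) and in Ag09319 (2.31 and 1.09, against GM12878), with 4 and 3 receptors called against 37.7% and 30% of probe sets. At 0 h TREM1, TLR2, ITGAX and CD163 exceeded the olfactory receptor 95th percentile on no fibroblast or lymphoblastoid array. LY96 exceeded it on 1 Ag09319 array only. The fibroblast differences of these receptors are therefore between low signals, apart from that 1 array.

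The remaining levels separated the lines less. For CD14 at 0 h the order ran from HL60 (5.98 and 5.99) and HEP-G2 (5.76 and 6.01) to K562 (4.86 and 5.23), and neighbouring lines overlapped except GM10854 and Ag09309. ITGAM was highest in HL60 at 0 h, followed by GM12878 with 5.70 and 5.56, and lowest in Ag09319 with 4.67 and 4.67. For ITGAX at 0 h, HEP-G2 (4.95 and 5.18) and HL60 (5.19 and 4.89) had the highest means, and GM10854 (4.65 and 4.97) overlapped both. For CSF1R, HEP-G2 (5.14 and 5.62), GM10854 (5.21 and 5.42) and GM07019 (5.28 and 5.33) overlapped at the top and HL60 was in the middle. CD163 had its highest mean at 0 h in HEP-G2 (3.84 and 4.49), where the second array is one of those that stood apart. HL60 (4.0 and 3.17) overlapped HEP-G2, and no CD163 array of any line exceeded the olfactory receptor 95th percentile. TREM1 at 0 h ran only from 3.35 to 4.36 over all lines but HL60, which lay inside that range. Both arrays exceeded the olfactory receptor 95th percentile in 25 of 27 groups for CD14, 16 for ITGAM, 8 for TLR4, 5 for CSF1R, 3 for ITGAX, 2 for TREM1, 2 for TLR2, 1 for LY96 and 0 for CD163. The groups for TREM1, TLR2 and ITGAX were all from HL60.

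Among 16 measured partner chains and ligands of these receptors, 2 were called higher and 0 lower in HL60 at 36 h. Of all probe sets, 0.714% were called higher and 0.154% lower. The list median was −0.05, against −0.02 over all probe sets. ITGB2, the beta chain that ITGAM and ITGAX need, read 8.00 and 8.32 at 0 h, 8.92 and 8.99 at 8 h and 9.52 and 9.27 at 36 h, with no overlap between times. Its change was 0.79 ± 0.16 at 8 h (limma, adjusted p = 0.0151) and 1.23 ± 0.16 at 36 h (limma, adjusted p = 5.02e-06). HP, haptoglobin, the plasma protein that CD163 takes up bound to haemoglobin, read 5.10 and 5.33 at 0 h, 6.52 and 6.66 at 8 h and 7.71 and 7.96 at 36 h (2.62 ± 0.33 at 36 h, limma, adjusted p = 1.76e-06). TYROBP, the TREM1 adaptor, was already at 7.47 and 7.83 at 0 h and read 7.55 and 7.04 at 36 h (−0.35 ± 0.26, limma, adjusted p = 0.952). SYK, the kinase that acts after TYROBP, changed by 0.54 ± 0.22 (limma, adjusted p = 0.446).

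**Figure D3:**
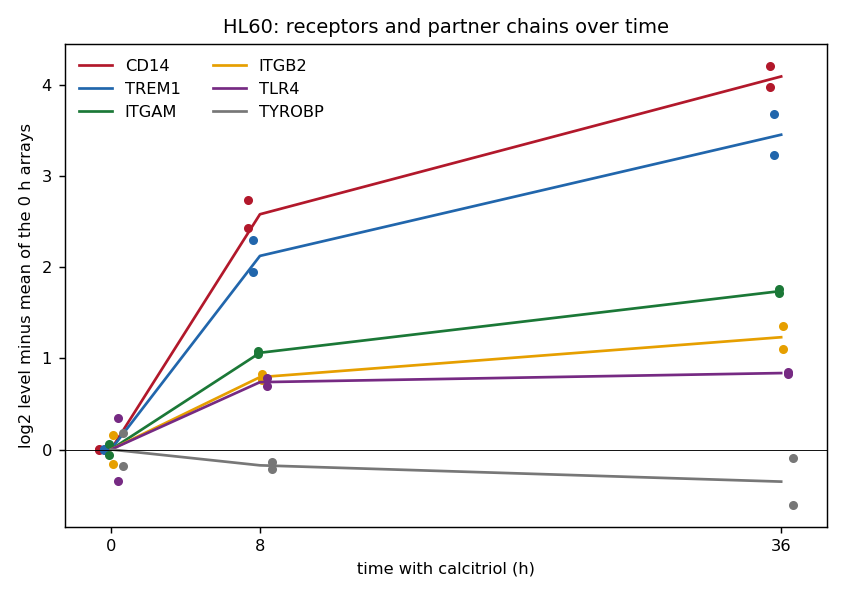
Log2 level in HL60 minus the mean of the 0 h arrays (y axis) against hours with calcitriol (x axis) for the receptors CD14, TREM1, ITGAM and TLR4, the beta chain ITGB2 and the adaptor TYROBP; points are single arrays, shifted slightly sideways, and lines join means. At 36 h CD14 reaches 4.10, TREM1 3.46, ITGAM 1.74, ITGB2 1.23 and TLR4 0.84, while TYROBP is at −0.35.

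Of 38 other measured monocyte and macrophage surface molecules, 0 were called in HL60 at 36 h and 0 at 8 h by limma, with 11 and 3 at an unadjusted p under 0.05 and a median change of 0.09 at 36 h. At 0.868% and 0.236% of all probe sets called, fewer than 1 call among 38 is what the overall share predicts. CD68, a macrophage lysosomal and surface protein, came nearest, with 8.28 and 8.10 at 36 h, against 7.61 and 7.50 at 0 h (0.63 ± 0.17, adjusted p = 0.0548). Of 21 measured Toll-like receptors and signalling proteins 0 were called at either time, with 1 at 36 h and 0 at 8 h at an unadjusted p under 0.05 and a median of 0.05 at 36 h. MYD88, the adaptor shared by most Toll-like receptors, changed by 0.03 ± 0.15. Of 10 measured monocyte transcription factors, BCL6 was called at 36 h (1.10 ± 0.21, limma, adjusted p = 0.00227). In this list 2 had an unadjusted p under 0.05 at 36 h and 4 at 8 h. The PU.1 gene SPI1 read 7.46 and 7.69 at 36 h, against 7.96 and 7.72 at 0 h (−0.26 ± 0.24), and CEBPB, a C/EBP factor of monocytes, changed by 0.69 ± 0.20 (limma, adjusted p = 0.112).

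Markers of the promyelocyte and neutrophil programme moved in both directions beside the receptors. Of 17 measured, MMP8 (neutrophil collagenase) rose by 5.0 ± 0.26 and CAMP (the antimicrobial peptide cathelicidin, a known vitamin D target) by 1.01 ± 0.20 at 36 h, and BPI, an antibacterial granule protein, fell by 1.16 (SE 0.22); adjusted p from limma was 1.36e-16, 0.00328 and 0.00169. The other 14 did not pass, though 10 of the 17 had an unadjusted p under 0.05, and the list median was −0.29. Of all probe sets, 0.868% were called. The myeloid enzyme MPO read 11.62 and 11.30 at 36 h, against 11.70 and 11.70 at 0 h. No B cell, fibroblast, hepatocyte or erythroid marker (0 of 8, 10, 9 and 9) was called in HL60 at 36 h by limma, and 1, a hepatocyte marker, had an unadjusted p under 0.05. The share of all probe sets called predicts fewer than 1 call in lists of this size.

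**Figure D4:**
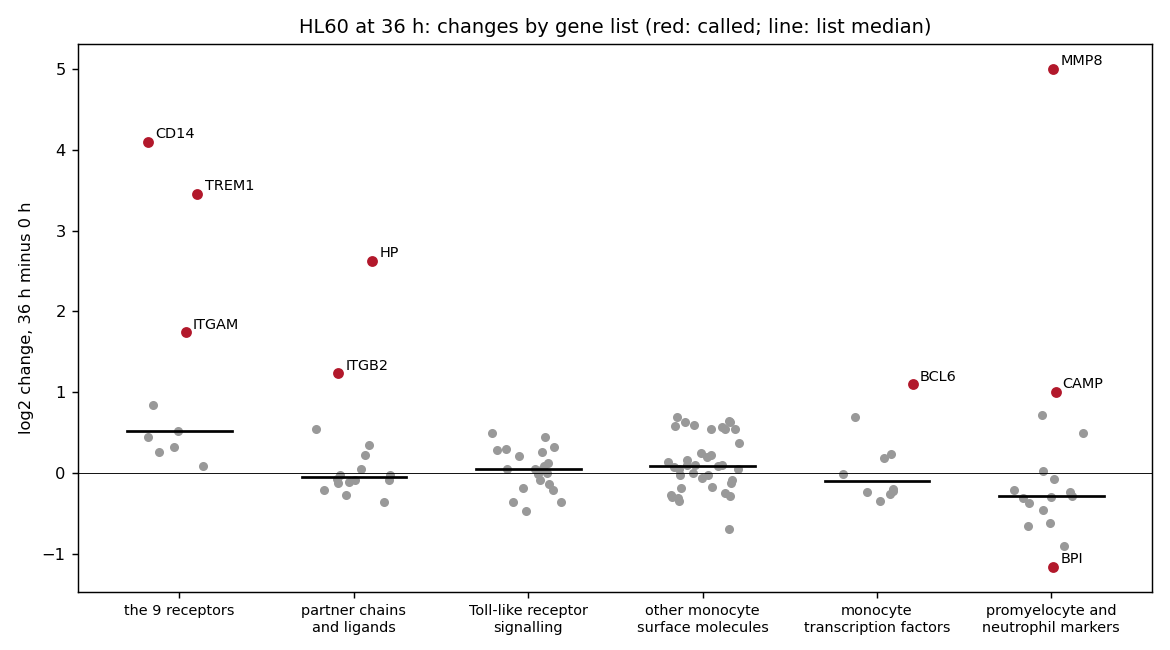
Log2 change in HL60 at 36 h against 0 h (y axis) of every measured gene of 6 lists (x axis); red named points were called, grey points were not, and the black line is the list median. The 9 receptors have 3 calls and a median of 0.52, and the 38 other monocyte surface molecules have 0 calls and a median of 0.09.

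Across the 27 group means the genes whose pattern was most like CD14 were FBP1 (a gluconeogenic enzyme, Pearson r = 0.968), MMP8 (r = 0.968) and ADAM28 (a membrane metalloprotease, r = 0.948). In HL60 FBP1 read 10.07 at 36 h, against 5.12 at 0 h, and ADAM28 6.15 at 36 h, against 4.29 at 0 h. For TREM1 the nearest genes were FBP1 (r = 0.960), CD14 (r = 0.942) and MMP8 (r = 0.937). For ITGAM they were ANKRD22 (r = 0.934), ADAM28 (r = 0.926) and TFEC (r = 0.926). These correlations are descriptive and rest largely on the 3 HL60 groups, which share a line. Without the Ag09309 group at 0 h, over 26 groups, the same 3 genes led for CD14, TREM1, ITGAM, TLR2 and LY96, and 2 of 3 for TLR4, ITGAX, CD163 and CSF1R. TLR2 was most like ABCA13 (r = 0.980), CNTNAP4 (r = 0.978) and LAIR1 (r = 0.976), an inhibitory receptor of blood cells. TLR4 was most like RANBP17 (r = 0.956), SATB1 (r = 0.952) and DOCK5 (r = 0.947), and LY96 most like GINM1 (r = 0.966), MAP9 (r = 0.965) and PTPN13 (r = 0.961). The nearest genes were less alike for ITGAX (OR1B1, HK3 and CD1D, r = 0.904, 0.893 and 0.893), CD163 (C20orf173, HPN-AS1 and RETNLB, r = 0.863, 0.860 and 0.854) and CSF1R (TG, PTCRA and CLEC4G, r = 0.923, 0.908 and 0.908). CD14 and TREM1 went together (r = 0.942), and TLR4 with LY96 much less (r = 0.354).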

How the data were processed

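The deposited table holds log2 values of 33297 probe sets on 54 arrays, produced by the authors with RMA in Affymetrix Expression Console 1.0, per the submitters' processing notes. No source used here says whether all arrays were normalised together. Groups came from the cell line and time labels; the titles of GM10854 name another line, and its cell line field was used. The 19460 probe sets with 1 symbol in the probe table (21214 listed) were tested. Precision is limited by the number of arrays; no arrays were identical.

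Comparisons were made with lmFit, contrasts.fit and eBayes of limma 3.58.1 (R 4.3.3), two-sided, adjusting by Benjamini-Hochberg within a comparison over all probe sets, at a threshold of 0.05; "called" means past it. Single lines and differences came from 1 fit of 27 groups (27 residual degrees of freedom), means over lines from the averaged arrays with time and line as terms. The fits were tested on simulated data. All 9 receptors are named; from each gene list the called genes in HL60 at 36 h, and per receptor the 3 most correlated genes by Pearson's r, were to be named. Where several probe sets share a gene, that of highest mean stands for it. TYROBP, SYK, CD68, MYD88, SPI1, CEBPB, MPO and MS4A1 were added after values were seen. The members and lists were chosen with earlier results of these data known. Promoter windows were taken from RefSeq (GRCh38.p14). Alternatives covered normalisation, filtering, moderation, left-out arrays and lines, own-line fits, title style and a replicate block. Replicate numbers were not treated as pairs: differences between replicates correlated above 0.1 in 14 of 27 pairs of times (−0.41 to 0.58), in all 3 pairs of a line for K562, GM07348 and GM12878 but not for HL60. Plots used Python 3.11.15 with matplotlib 3.10.9.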

Additional observations from a re-analysis of the deposited data

Results flagged for a closer look

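For each receptor the changes of the 9 lines, and of the 4 lymphoblastoid lines among themselves, were compared at each time, in 36 sets. Chance sets a line apart in about 1 of 20 such sets. The receptors were chosen with earlier results of these data known, so that rate is no independent test of them. HL60 lay far from the other 8 lines for CD14 (2.58 at 8 h and 4.10 at 36 h on the log2 scale), TREM1 (2.13 and 3.46) and ITGAM (1.06 and 1.74). Ag09319 lay far from the other lines for CD163 at 8 h, with a change of 0.52 (adjusted p = 0.169); it has 1 of the arrays that stood apart, and without that array the change was 0.12. Without Ag09309 the HL60 values still lay far from the other lines at both times, and that of CD163 in Ag09319 did not.

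The 36 h change in HL60 also differed from that of other lines by limma's test of the difference. For CD14 the difference was 4.37 from the lymphoblastoid lines, 3.81 from K562 and 4.16 from the mean of the other 8 lines. For TREM1 these differences were 3.52, 3.26 and 3.40, and for ITGAM 1.70, 1.59 and 1.74.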

How the results depend on the processing

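The calls of CD14, TREM1 and ITGAM in HL60 at 36 h, and their differences from the other lines, held under every alternative run. The replicate block left 3 receptors called in HL60 at 36 h (CD14 4.10); of the counts here it moved only the fibroblast level count, to 7. The TLR2 change in HL60 turned to −0.020 without the first 0 h array and was 1.07 without the second. Leaving out single arrays, the number of receptors called ran from 3 to 5 in HL60 at 36 h, from 2 to 3 in HL60 at 8 h, from 0 to 2 for 36 h against 8 h, from 3 to 5 for HL60 minus lymphoblastoid levels, from 3 to 8 for fibroblast minus lymphoblastoid levels, and from 0 to 7 in the other 8 lines at 8 h. The 7 came without the first Ag09319 array at 8 h, all in that line, which left only the array that stood apart. Leaving out lines, it ran from 0 to 1 for the lymphoblastoid mean at 36 h. In the other 8 lines at 36 h it was 1 under quantile normalisation and 1 under median centring (TREM1 in Ag09309), 2 without the 3 arrays that stood apart (TREM1 and TLR4 in Ag09309) and 1 with each line fitted alone (LY96 in GM10854). The fibroblast level count was 3 under quantile normalisation, 3 under median centring and 4 without the Ag09309 0 h arrays; within a title style it was 4 for Ag09309 and 3 for Ag09319 (these last 3 alternatives were chosen after seeing the data). A line left with 1 array at a time was assumed to vary like the other groups. The causes were not tested. A filter on low values kept 7 of 9 receptors. Each receptor has 1 probe set, so the alternative of other probe sets gave no value. The precision is that of 2 arrays a group, and low signal is no measure of absence.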
